A study of Mus musculus with 8 samples.

Results

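Hepatic mRNA of 8 genes that sense sterols, carry them inside the cell or pump them out of it was compared in mice that differed in intestinal Elf4 and in alcohol feeding. The genes were Srebf2, Scap, Insig1, Insig2, Stard4, Abca1, Abcg5 and Abcg8. They were picked by symbol as genes of sterol sensing, transport and efflux, and all 8 were among the 19267 genes of the count table and among the 13993 genes with enough reads to be tested. Liver RNA came from male C57BL/6 mice that entered the feeding experiment at 6 weeks of age and were sampled at 9 weeks. Elf4-/- mice carried floxed Elf4 and Cre recombinase under the Villin promoter, so that the transcription factor gene was removed from intestinal epithelium and kept in the liver, and WT mice carried Cre per the study's methods. Each genotype was pair-fed a Lieber-DeCarli liquid diet for 21 days, which contained either alcohol at 5% w/v (the EtOH groups) or, in its place, maltose dextrin of equal calories (the Control groups). WT-Control and WT-EtOH, and likewise Elf4-/- Control and Elf4-/- EtOH, had 2 libraries each. Whether a library stood for 1 mouse was not stated, so the p-values measure the spread between libraries.

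The cholesterol content of a hepatocyte is kept within limits by opposing sets of genes. SREBP-2, encoded by Srebf2, is made as an inactive precursor in the endoplasmic reticulum, where it is bound to the escort protein SCAP. When membrane sterol is plentiful, INSIG proteins hold the SCAP complex in place. When sterol is scarce, the complex moves to the Golgi apparatus and the factor is cut free. Genes of cholesterol synthesis and lipoprotein uptake are then switched on, as is Insig1. STARD4 is a soluble carrier of cholesterol between membranes. The LXR receptors, which bind oxidised cholesterol, turn on the opposite arm: ABCA1 moves cholesterol onto apolipoprotein A-I, and ABCG5 and ABCG8 form an obligate heterodimer that secretes sterols into bile.

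The promoters of Insig1 and Insig2 are shown because the levels of these related genes went apart between libraries, and the stretch between Abcg5 and Abcg8 is shown because both genes start there and their levels changed unequally. The sequences are RefSeq reference sequence of GRCm38.p6, 5′ to 3′ on the strand of the gene, and hold only bases outside annotated exons. Capitals mark CCAAT, the NF-Y box, or CACGTG, the E-box, found on either strand.
Insig1 promoter, chr5:28071162-28071362, plus strand: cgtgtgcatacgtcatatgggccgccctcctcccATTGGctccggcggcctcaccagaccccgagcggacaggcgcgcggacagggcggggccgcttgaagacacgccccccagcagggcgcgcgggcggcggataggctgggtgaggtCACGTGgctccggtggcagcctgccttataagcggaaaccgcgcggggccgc
Insig2 promoter at the first of 3 RefSeq start sites, chr1:121332590-121332839, minus strand: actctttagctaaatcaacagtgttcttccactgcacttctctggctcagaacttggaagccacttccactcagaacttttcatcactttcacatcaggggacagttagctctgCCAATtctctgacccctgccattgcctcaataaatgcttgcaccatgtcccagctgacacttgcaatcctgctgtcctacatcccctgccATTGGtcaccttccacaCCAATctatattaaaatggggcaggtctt
Stretch between Abcg5 and Abcg8, chr17:84683012-84683120, on the plus strand, from which Abcg8 is read: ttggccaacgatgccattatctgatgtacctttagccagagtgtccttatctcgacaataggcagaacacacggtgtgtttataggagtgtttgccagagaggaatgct

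The Insig1 stretch, of 72.6% G and C, held 1 NF-Y box and 1 E-box. The Insig2 stretch was poorer in G and C, at 47.2%, and held 3 NF-Y boxes and no E-box. Abcg5 and Abcg8 are read away from each other, and 109 bases lie between their main start sites, so that both promoters are 1 stretch of DNA. Over windows from 250 bases before to 50 bases after a start site, CCAAT stood in 5 of the 11 windows of the genes studied and in 37.4% of 32851 mouse promoters. CACGTG stood in 4 of the 11 and in 7.15% of all promoters. The letters TCACNCCAC, searched for as a sterol regulatory element, were in none of the 11 windows and in 1.24% of all promoters, and the LXR element, AGGTCA repeated after a spacer of 4 bases, was in none and in 0.0152%. TCACNCCAC stood in only 1 of 18 windows of cholesterol biosynthesis enzymes, so its absence does not show that a gene lacks such an element. Both strands were read, and matches of different motifs did not share bases in these windows. The windows are not independent: both Scap windows hold the same E-box, and the windows of Abcg5 and Abcg8 share a CCAAT. A match describes letters only and is not a test of binding.

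Library totals ran from 6171051 to 9157362 counts. The share of counts from the mitochondrial genome ran from 10.8% to 33.7% and was highest in both WT-Control libraries and lowest in both WT-EtOH libraries. The hepatocyte markers Alb, Apoa1, Cps1, Fgb, Tat and Cyp2e1 were detected in every library, with a summed level of 30714 to 70925 CPM (counts per 1000000 counts of the library, scaled by TMM factors that correct for library composition). Elf4 itself was low in liver, at 6 and 11 counts for WT-Control, 27 and 36 counts for WT-EtOH, 12 and 6 counts for Elf4-/- Control and 14 and 34 counts for Elf4-/- EtOH. Since the deletion is intestinal, these counts are no check of the genotype. In whole liver, fewer cells of a type and less RNA per cell cannot be told apart.

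Per length of annotated exon, the genes differed widely in abundance. The median level over the 8 libraries, in FPKM (CPM per kilobase of exon), was 101 for Abcg5, 59.1 for Insig1, 27.7 for Abcg8, 15.1 for Insig2, 11.4 for Scap, 10.1 for Abca1, 9.78 for Stard4 and 4.95 for Srebf2. The most abundant mRNA was thus that of a biliary exporter, and the least abundant that of the transcription factor. Insig1 stood above Abcg8 and Stard4 above Srebf2 in 8 of 8 libraries, and Abcg5 stood above Insig1 in 7 of 8. Insig2, Scap, Abca1 and Stard4 had overlapping ranges, and Scap stood above Abca1 in only 4 of 8 libraries, so the order in the middle was not separated from the spread.

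**Figure D1:**
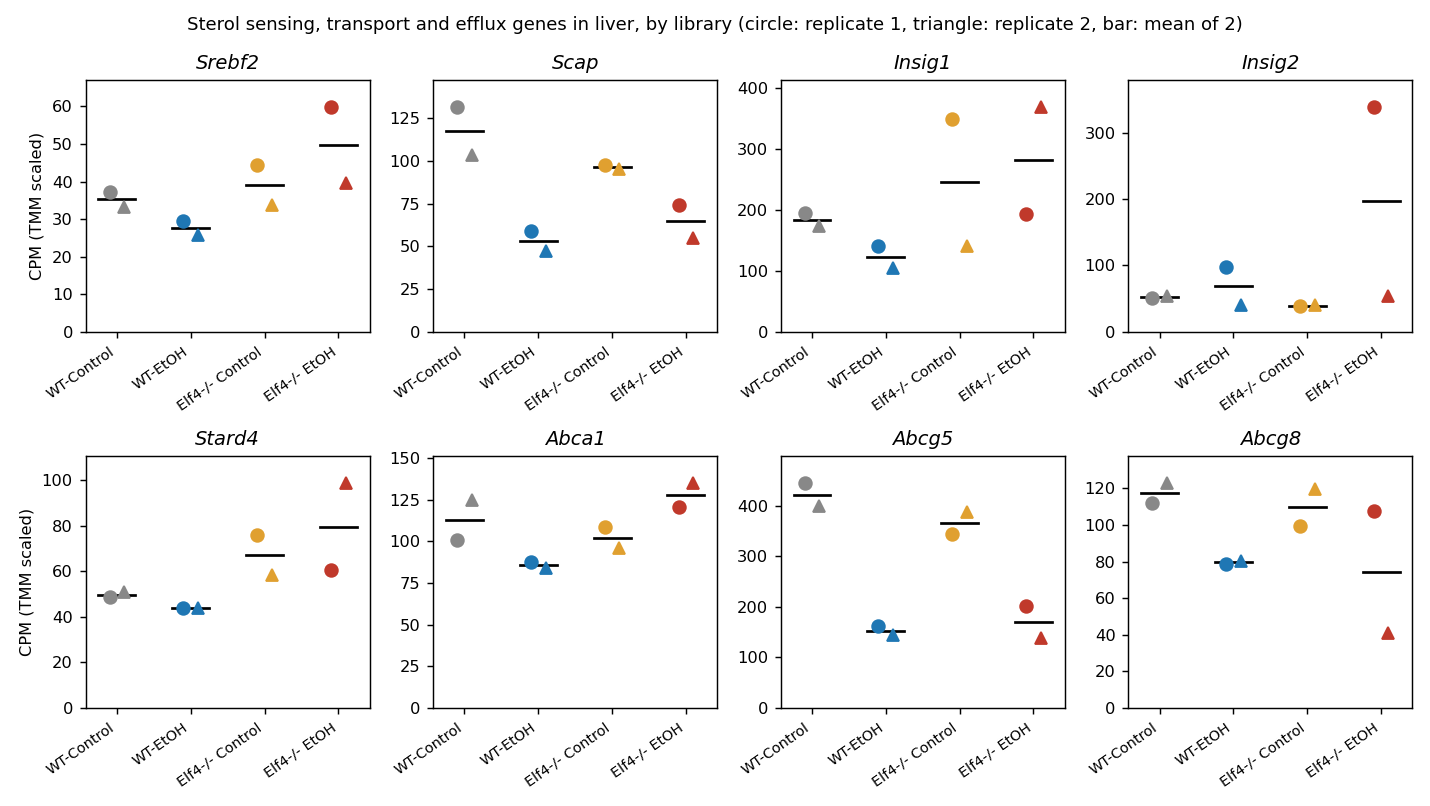
Level of each gene in CPM (linear axis from 0, own scale per panel) in the 8 libraries, by group, with circles for replicate 1, triangles for replicate 2 and bars for the mean of both. Abcg5 lies between 139 and 203 CPM in the 4 EtOH libraries and between 345 and 445 CPM in the 4 Control libraries, and Insig2 reaches 340 CPM in a single Elf4-/- EtOH library.

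Alcohol lowered Abcg5 in both genotypes and Scap in WT, and none of the 8 genes passed the test between genotypes. Under EtOH, Elf4-/- against WT, 0 of 8 genes passed an adjusted p of 0.05 (edgeR's quasi-likelihood test), where 0.143% of all genes tested did, and 5 of 8 had an unadjusted p under 0.05, all of them higher in Elf4-/-, as did 1470 of all 13993 genes. DESeq2 called none of the 8 in this comparison either. The median log2 fold change of the 8 was 0.71, against a median close to 0 over all genes. Under the control diet 0 of 8 passed, by either tool, with a background of 0.0143%, and 0 had an unadjusted p under 0.05. For EtOH against Control in WT, 2 of 8 passed, both lower, where 21.6% of all genes did, so the share of called genes was close to that of the whole table. For EtOH against Control in Elf4-/-, 1 of 8 passed, lower, against a background of 2.89%, and 3 of 8 had an unadjusted p under 0.05, as did 2966 of all genes. The interaction, which asks whether the diet effect differed between the genotypes, called 0 of 8 genes and 0% of all genes with edgeR. At an unadjusted p under 0.05, 1 of the 8 and 1411 of all genes were found, and DESeq2 called 111 genes in all and none of the 8. Where libraries of different groups are said below to lie apart, this describes the libraries and is not a test. The share of all genes that separate in such a way was not counted.

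**Figure D2:**
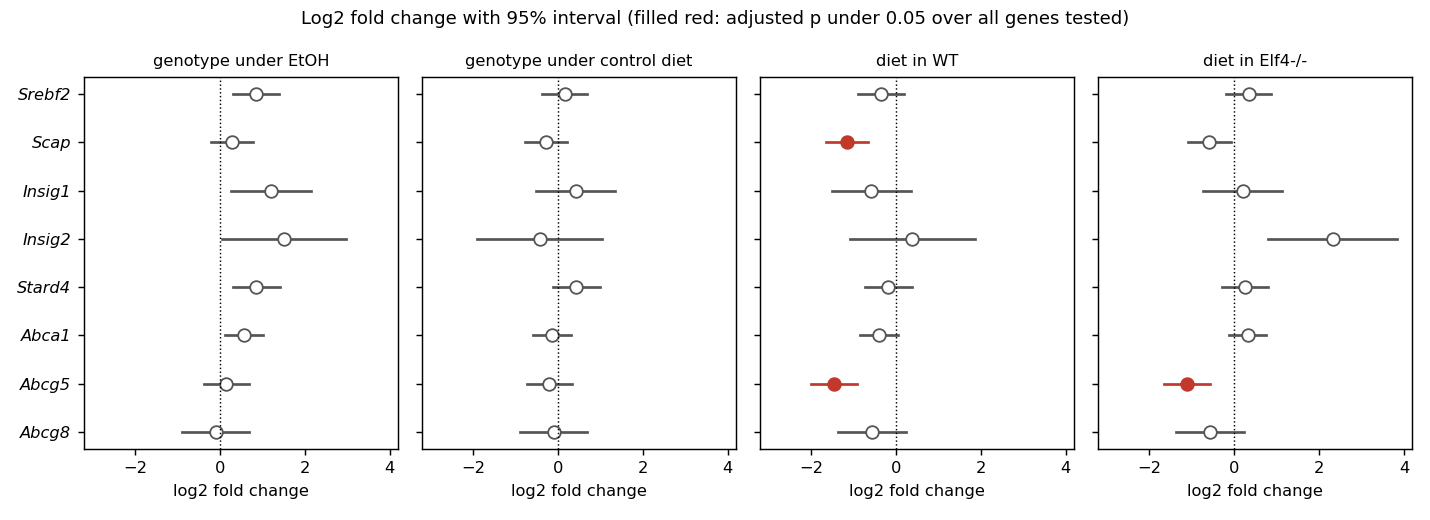
Log2 fold change (x axis) of each gene (y axis) in 4 comparisons, with 95% intervals as lines and filled red points where the adjusted p was under 0.05. Abcg5 and Scap in WT and Abcg5 in Elf4-/- are filled, and the intervals of Srebf2, Insig1, Insig2, Stard4 and Abca1 lie above 0 for genotype under EtOH without passing the adjusted threshold.

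Srebf2, the gene of the transcription factor, lies on chromosome 15 at 82147181 to 82205379 of GRCm38, on the plus strand, and hosts the microRNA gene Mir33 in an intron. It was measured at 37.3 and 33.1 CPM in WT-Control, 29.6 and 25.7 CPM in WT-EtOH, 44.5 and 33.9 CPM in Elf4-/- Control and 59.9 and 39.5 CPM in Elf4-/- EtOH. The WT-EtOH libraries were the lowest pair, below every other library. Under EtOH the log2 fold change of Elf4-/- over WT was 0.85 ± 0.24 (SE), with an unadjusted p of 0.00552 and an adjusted p of 0.256. It was 0.52 with an adjusted p of 0.394 without the first Elf4-/- EtOH library, and 1.11 with an adjusted p of 0.0300 without the second. Under the control diet the difference was 0.16 ± 0.24. On the log2 scale the diet effect was -0.35 ± 0.24 in WT and 0.34 ± 0.24 in Elf4-/-, with adjusted p-values of 0.327 and 0.443. The difference between these effects, 0.69 ± 0.34, had an adjusted p of 0.538. When counts were scaled by library totals alone, the WT effect was 0.08, of the opposite sign.

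Scap, the escort of SREBP-2, is on chromosome 9 at 110333288 to 110384950 of GRCm38, plus strand, and shares 985 exonic bases with the unconfirmed gene 5830462I19Rik on the opposite strand. Its level was 132 and 104 CPM in WT-Control, 58.8 and 47.3 CPM in WT-EtOH, 97.8 and 95.3 CPM in Elf4-/- Control and 74.3 and 54.9 CPM in Elf4-/- EtOH. All 4 EtOH libraries were below all 4 Control libraries. In WT, alcohol feeding lowered Scap 2.22-fold, a log2 fold change of -1.15 ± 0.23 (SE) with an adjusted p of 0.00813. Without the second WT-EtOH library the change was -1.01 and the adjusted p 0.0909, in a setting where calls over all genes went from 3025 to 626. In Elf4-/- the change was -0.58 ± 0.22 on the log2 scale and did not pass, with an adjusted p of 0.175. The interaction, 0.57 ± 0.32, had an adjusted p of 0.588, so the effects were not shown to differ between genotypes. Between genotypes the log2 difference was 0.28 ± 0.22 under EtOH and -0.29 ± 0.22 under the control diet.

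Insig1, the anchor that is itself a target of SREBP-2, lies on chromosome 5 at 28071363 to 28078662 of GRCm38, plus strand. It stood at 194 and 173 CPM in WT-Control, 141 and 104 CPM in WT-EtOH, 348 and 141 CPM in Elf4-/- Control and 193 and 369 CPM in Elf4-/- EtOH. The WT pairs were close, while the Elf4-/- pairs spread 2.47-fold and 1.92-fold. The gap between the Elf4-/- Control replicates was among the widest in the table: of 9398 genes averaging 50 counts or more, 0.702% had a wider one. Under EtOH, both Elf4-/- libraries were above both WT libraries, with a log2 fold change of 1.20 ± 0.42 (SE, 95% interval 0.26 to 2.14), an unadjusted p of 0.0174 and an adjusted p of 0.361. It was 1.60 without the first Elf4-/- EtOH library and 0.65 without the second, with adjusted p-values of 0.0964 and 0.517. Under the control diet the difference was 0.42 ± 0.42 on the log2 scale, with an interval from -0.51 to 1.34, and it was -0.37 without the first Elf4-/- Control library. Alcohol feeding gave log2 fold changes of -0.58 ± 0.42 in WT and 0.20 ± 0.41 in Elf4-/-, with adjusted p-values of 0.343 and 0.822. The Elf4-/- value was negative, at -0.31 and -0.37, without the second Elf4-/- Control or the second Elf4-/- EtOH library.

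Insig2, the anchor that SREBP-2 does not drive and that is known in liver for a transcript lowered by insulin, is on chromosome 1 at 121304353 to 121332589 of GRCm38, minus strand. Its level was 51.3 and 54.1 CPM in WT-Control, 97.0 and 40.9 CPM in WT-EtOH, 38.1 and 40.3 CPM in Elf4-/- Control and 340 and 53.7 CPM in Elf4-/- EtOH. The Control libraries were tight and the EtOH libraries were not. The first Elf4-/- EtOH library held 2130 reads of Insig2 and the second held 405, a 6.32-fold gap in CPM, and 0.809% of 9398 genes had a wider gap between these libraries. In WT-EtOH the replicates were 2.37-fold apart, and 0.862% of genes had a wider gap there. The fitted change from Control to EtOH in Elf4-/- was 2.32 ± 0.68 on the log2 scale, with an adjusted p of 0.0916. It was 0.46 without the first Elf4-/- EtOH library, with an adjusted p of 0.597, and 3.09 without the second, with an adjusted p of 0.000425, so its size rested on the first library. Under EtOH the genotype difference of 1.51 ± 0.66 turned to -0.35 without the first Elf4-/- EtOH library and was 2.30, with an adjusted p of 0.00864, without the second. In WT the diet effect was 0.39 ± 0.66, and -0.37 without the first WT-EtOH library.

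Stard4, the cytosolic cholesterol carrier, is on chromosome 18 at 33199355 to 33213862 of GRCm38, minus strand. It was at 48.7 and 51.0 CPM in WT-Control, 44.0 and 44.0 CPM in WT-EtOH, 75.9 and 58.3 CPM in Elf4-/- Control and 60.6 and 98.8 CPM in Elf4-/- EtOH. All 4 Elf4-/- libraries were above all 4 WT libraries, but neither genotype comparison passed with all libraries in the fit. The log2 difference between genotypes was 0.86 ± 0.25 (SE) under EtOH, with an unadjusted p of 0.00582 and an adjusted p of 0.261. Under the control diet it was 0.43 ± 0.25, with an adjusted p of 0.775. The difference under EtOH was 1.17 with an adjusted p of 0.0307 without the first Elf4-/- EtOH library, and 0.45 with an adjusted p of 0.375 without the second. On the log2 scale the diet effect on Stard4 was -0.18 ± 0.25 in WT and 0.25 ± 0.24 in Elf4-/-, and the WT value was 0.25 with scaling by library totals alone.

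Abca1, the exporter of cholesterol to nascent high-density lipoprotein, is on chromosome 4 at 53030787 to 53159895 of GRCm38, minus strand. It was measured at 101 and 125 CPM in WT-Control, 87.8 and 84.1 CPM in WT-EtOH, 109 and 95.8 CPM in Elf4-/- Control and 121 and 135 CPM in Elf4-/- EtOH. It was the steadiest of the 8 genes, with 0.230 as the root mean square of its centred log2 CPM, against 0.985 for Insig2. Both WT-EtOH libraries were below the WT-Control libraries, and both Elf4-/- EtOH libraries were above the Elf4-/- Control libraries. The difference between the diet effects was 0.72 ± 0.28 on the log2 scale, with an unadjusted p of 0.0287 and an adjusted p of 0.434. Under EtOH the log2 difference between genotypes was 0.57 ± 0.20, with an adjusted p of 0.348, and under the control diet it was -0.14 ± 0.20. With library totals alone these control-diet and WT diet values changed sign, to 0.09 and 0.03.

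Abcg5 and Abcg8, the partners of the biliary sterol exporter, lie side by side on chromosome 17, at 84658234 to 84683011 on the minus strand and 84676302 to 84700333 on the plus strand of GRCm38. The Abcg8 range includes an alternative start inside Abcg5, and the genes share 82 exonic bases. If reads were counted without strand, those reads cannot be assigned to 1 gene. Abcg5 was at 445 and 399 CPM in WT-Control, 162 and 145 CPM in WT-EtOH, 345 and 388 CPM in Elf4-/- Control and 203 and 139 CPM in Elf4-/- EtOH. Every EtOH library was below every Control library, in both genotypes. Alcohol feeding lowered Abcg5 2.75-fold in WT, a log2 fold change of -1.46 ± 0.24 (SE) with an adjusted p of 0.00445. In Elf4-/- the decrease was 2.15-fold, a log2 fold change of -1.10 ± 0.24 with an adjusted p of 0.0437, and the interaction was 0.36 ± 0.34 with an adjusted p of 0.775. The WT call was lost without the second WT-EtOH library, at -1.39 and an adjusted p of 0.0554. The Elf4-/- call was lost without either Elf4-/- Control library, with adjusted p-values of 0.186 and 0.269, when the libraries compared were fitted alone, with 0.137, and with the replicate number as a block, with 0.0608. In these settings the log2 fold change of Abcg5 in Elf4-/- stayed between -1.19 and -1.02.

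Abcg8 was at 112 and 123 CPM in WT-Control, 78.9 and 80.4 CPM in WT-EtOH, 99.5 and 120 CPM in Elf4-/- Control and 108 and 41.0 CPM in Elf4-/- EtOH. In WT the EtOH pair was below the Control pair. In Elf4-/- the second EtOH library was the lowest of all and the first overlapped the Control pair. The diet effect was -0.56 ± 0.36 on the log2 scale in WT, with a 95% interval from -1.36 to 0.24, and -0.56 ± 0.36 in Elf4-/-, with an interval from -1.36 to 0.24. The adjusted p-values were 0.287 and 0.396. The Elf4-/- effect was -1.42 with an adjusted p of 0.0150 without the first Elf4-/- EtOH library, and -0.042 with an adjusted p of 0.927 without the second. Fitted on the WT libraries alone, the WT effect of -0.55 had an adjusted p of 0.0498. Between genotypes, Abcg8 differed by -0.10 ± 0.36 under EtOH and by -0.10 ± 0.36 under the control diet, and Abcg5 by 0.16 ± 0.24 and -0.20 ± 0.24, on the log2 scale. The Abcg5 values changed sign with library totals alone, to -0.08 and 0.02, as did Abcg8 under the control diet, to 0.12. Under EtOH the Abcg8 value was 0.43 without the second Elf4-/- EtOH library, and the Abcg5 value was -0.14 without the first.

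Markers of other liver cells also changed with diet, and most of the calls were in WT. In WT, 6 of 7 Kupffer cell and macrophage markers and 6 of 7 endothelial markers rose with EtOH, and none fell, where 21.6% of all genes were called, about as many higher as lower. The Kupffer markers summed to 249 and 184 CPM in WT-Control, 620 and 563 CPM in WT-EtOH, 176 and 168 CPM in Elf4-/- Control and 238 and 227 CPM in Elf4-/- EtOH. The endothelial markers summed to 147 and 81.1 CPM in WT-Control, 340 and 410 CPM in WT-EtOH, 202 and 231 CPM in Elf4-/- Control and 353 and 205 CPM in Elf4-/- EtOH. Stellate cell markers rose in 4 of 7 cases in WT, where their sum went from 75.0 and 34.6 CPM to 262 and 345 CPM. In Elf4-/- none of them passed, and their sum was 132 and 98.9 CPM in Control and 344 and 205 CPM in EtOH. In Elf4-/-, with 2.89% of all genes called, 1 Kupffer marker rose with EtOH and no endothelial marker passed, and under EtOH 2 Kupffer markers were lower in Elf4-/- than in WT. Of 6 hepatocyte markers in WT, 1 rose, 1 fell and 4 did not pass, and none passed in Elf4-/-. Their sum was 50846 and 70925 CPM in WT-Control and 39177 and 30714 CPM in WT-EtOH. It was 61224 and 67498 CPM in Elf4-/- Control and 41928 and 50138 CPM in Elf4-/- EtOH, so that every EtOH library was below every Control library. No marker gene of these 4 lists was at 0 in all libraries. The mitochondrial share of counts was 33.7% and 23.4% for the WT-Control libraries, 12.5% and 10.8% for the WT-EtOH libraries, 18.7% and 18.5% for the Elf4-/- Control libraries and 22.1% and 18.3% for the Elf4-/- EtOH libraries. The part of the cell makeup and of the mitochondrial share in the changes of Scap and Abcg5 was not tested.

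The ratio of members within a library does not depend on scaling. Abcg5 over Abcg8, in CPM, was 3.97 and 3.25 for WT-Control, 2.05 and 1.80 for WT-EtOH, 3.47 and 3.23 for Elf4-/- Control and 1.88 and 3.39 for Elf4-/- EtOH. The WT-EtOH libraries and the first Elf4-/- EtOH library were low, and the remaining Elf4-/- EtOH library was at the Control level. In WT the log2 ratio fell by 0.90 from Control to EtOH, without overlap, and the exact two-sided permutation test gave p = 0.333, the smallest value that 2 libraries against 2 allow. In Elf4-/- the groups overlapped, with a difference of -0.41 and an exact permutation p of 0.667.

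Insig1 over Insig2 was 3.79 and 3.20 for WT-Control, 1.46 and 2.54 for WT-EtOH, 9.14 and 3.51 for Elf4-/- Control and 0.568 and 6.87 for Elf4-/- EtOH. Insig2 exceeded Insig1 in a single library of the 8, the first of Elf4-/- EtOH. The difference in log2 ratio between genotypes under EtOH was 0.037, and it was 1.84 without that library and -1.76 without the second. Scap over Insig1 was 0.679 and 0.599 for WT-Control, 0.416 and 0.455 for WT-EtOH, 0.281 and 0.675 for Elf4-/- Control and 0.385 and 0.149 for Elf4-/- EtOH. The WT-EtOH libraries lay below the WT-Control libraries, and the Elf4-/- groups overlapped. Of the genotype and diet comparisons of 6 such ratios, none could reach a p below 0.333, and no p was adjusted.

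**Figure D3:**
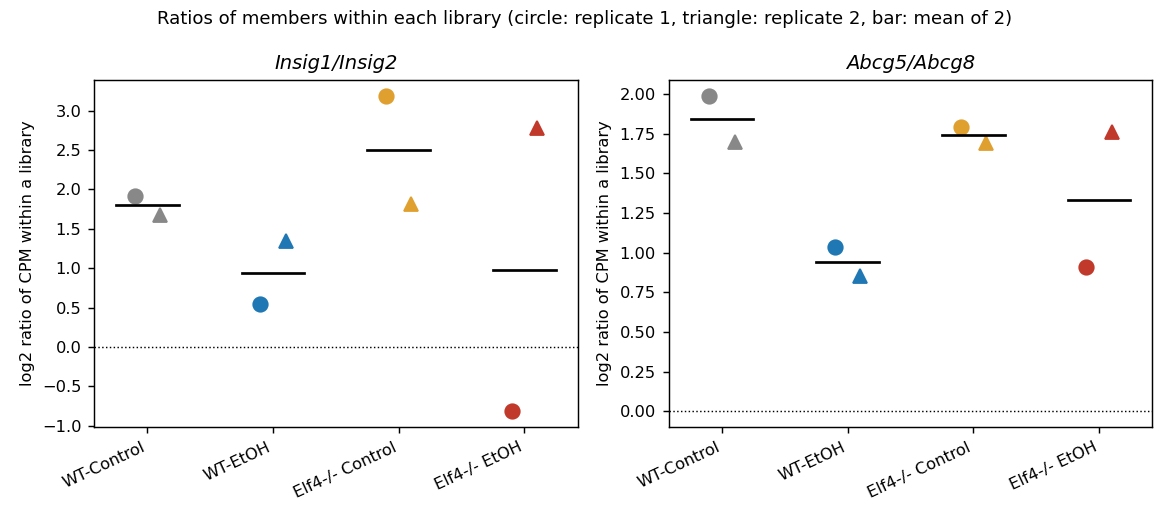
Log2 ratio of CPM within each library (y axis) for Insig1 over Insig2 and Abcg5 over Abcg8, by group, with circles for replicate 1, triangles for replicate 2, bars for the mean of both and a dotted line at equal levels. The Elf4-/- EtOH libraries lie apart in both panels, at ratios of 0.568 and 6.87 on the left and 1.88 and 3.39 on the right.

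Cholesterol biosynthesis enzymes, the targets downstream of the sensing genes, were set beside the 8 genes. Only their mRNA was measured, so the activity of SREBP-2 was not tested. From the same liver RNA-seq, the study had reported cholesterol metabolism as enriched among genes raised in Elf4-/- under EtOH. The list was chosen with such results known, so the counts below are no independent support. The mean of their centred log2 CPM over 20 genes was -0.27 and -0.25 for WT-Control, -0.74 and -0.83 for WT-EtOH, 0.23 and -0.13 for Elf4-/- Control and 1.20 and 0.77 for Elf4-/- EtOH. The groups did not overlap between genotypes under either diet. Under EtOH, 7 of 20 enzymes were called higher in Elf4-/- and none lower, where 0.143% of all genes were called, with a median log2 fold change of 1.77, against 0.71 over the 8 sensing, transport and efflux genes. Among them were Sqle (3.69 ± 0.32) and Msmo1 (2.67 ± 0.31), which encode squalene epoxidase and a methylsterol monooxygenase. In WT, alcohol lowered 5 enzymes, led by Sqle (-2.29 ± 0.31), Dhcr7 (-1.85 ± 0.29) and Nsdhl (-1.62 ± 0.30), and raised 1, where 21.6% of all genes were called. In Elf4-/- it raised 6 and lowered none, against 2.89% of all genes, led by Idi1 (2.12 ± 0.48), Msmo1 (1.68 ± 0.30) and Cyp51 (1.58 ± 0.31). None of the 20 passed under the control diet or in the interaction, where 3 and 16 had an unadjusted p under 0.05. Comparisons that have a group in common are not independent of each other.

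The Elf4-/- EtOH libraries differed within the pathway, but they were also the least alike of all replicate pairs. Over 9398 genes, their log2 gaps had a standard deviation of 0.681, against 0.504 in WT-Control, 0.363 in Elf4-/- Control and 0.354 in WT-EtOH. The share of genes with a wider gap was 36.5% for Scap, 23.9% for Srebf2, 18.5% for Stard4, 10.6% for Insig1 and 0.809% for Insig2. For the efflux genes it was 72% for Abca1, 27.2% for Abcg5 and 3.87% for Abcg8. Whether the enzymes differed more than other genes was not tested. In the first Elf4-/- EtOH library, 15 of 20 enzymes were higher than in the second, as were Srebf2, Scap, Insig2, Abcg5 and Abcg8. Insig1, Stard4 and Abca1 were lower in the first. In centred log2 CPM, Insig1 was 0.02 in the first library and 0.95 in the second, and Stard4 was 0.06 and 0.77. In Elf4-/- Control, by contrast, the library with the higher Insig1 was also the one in which 17 of 20 enzymes were higher.

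**Figure D4:**
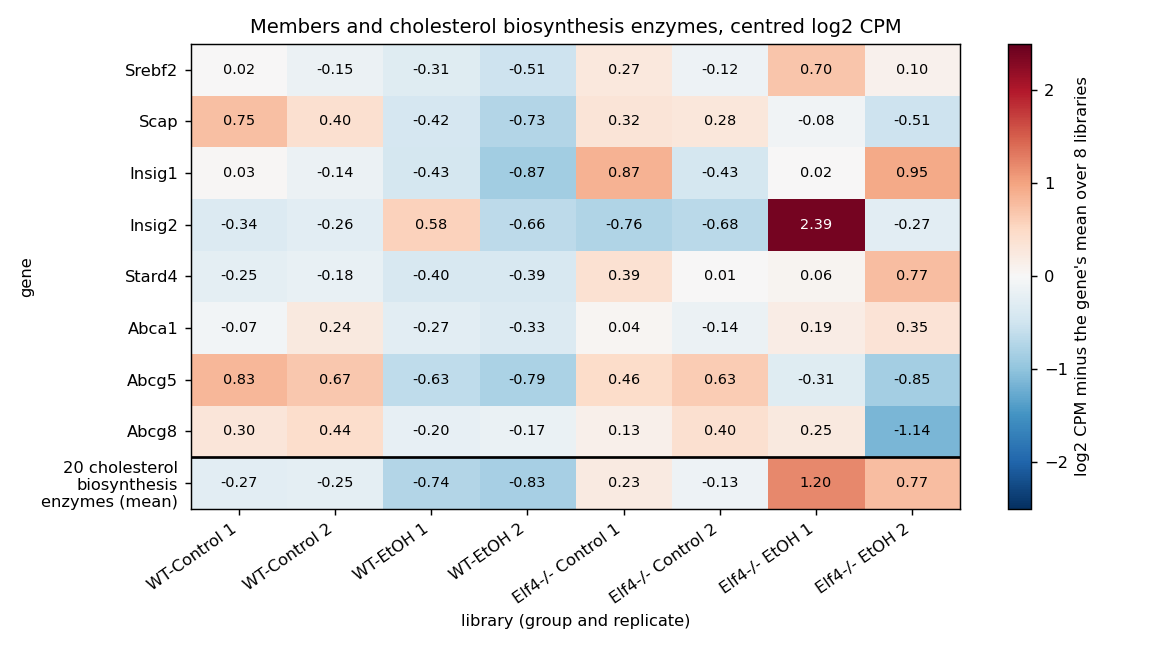
Centred log2 CPM (each gene minus its mean over the 8 libraries, in color and printed in each cell) for the 8 genes and the mean of 20 cholesterol biosynthesis enzymes (rows), by library (columns). Insig2 reaches 2.39 in the first Elf4-/- EtOH library, where Insig1 is at 0.02 and the enzyme mean at 1.20.

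In other genes of the pathway, most of the calls were for diet in WT, where 21.6% of all genes were called, 1518 higher and 1507 lower. Of 11 further genes of SREBP processing and control, 3 fell with EtOH in WT and none rose: Srebf1 (-2.71 ± 0.57 on the log2 scale), which encodes the related factor SREBP-1, and the endoplasmic reticulum genes Rnf5 (-0.69 ± 0.19) and Erlin2 (-0.66 ± 0.21). Of 11 genes of lipoprotein uptake and endosomal sterol export, 5 rose and 2 fell in WT. The largest rises were in Npc2 (1.80 ± 0.25), the lysosomal cholesterol carrier, Lipa (1.55 ± 0.19), lysosomal acid lipase, and Mylip (1.36 ± 0.28), a ubiquitin ligase of lipoprotein receptors. In Elf4-/-, where 2.89% of all genes were called, the receptor gene Vldlr (2.18 ± 0.47) of this list rose and none fell.

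Against the same 21.6% in WT, 2 of 10 genes of intracellular sterol transport and esterification rose, Nceh1 (1.96 ± 0.23) and Soat1 (1.89 ± 0.48), and 2 fell, among them Soat2 (-1.08 ± 0.23). Soat1 and Soat2 encode the acyltransferases that make cholesteryl esters, and Nceh1 a hydrolase of such esters. Of 10 LXR genes and LXR targets, Abcg1 (1.88 ± 0.33) and Mylip rose in WT and Srebf1 fell, a count near that share. The log2 fold changes of the exporter genes Abca1, Abcg5 and Abcg1 in WT were -0.40, -1.46 and 1.88, of which the first did not pass. Of the bile acid and oxysterol synthesis genes, 5 of 6 were tested and Cyp39a1 (2.55 ± 0.43), an oxysterol hydroxylase, rose in WT. In the comparisons not mentioned here, none of these lists had a called gene.

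Each of the 8 genes was matched to the genes whose centred log2 CPM lay nearest over the 8 libraries, by root mean square difference among 9390 genes. The nearest gene was Fyb2 for Srebf2 (0.123), Cecr2 for Scap (0.103), Zfp568 for Insig1 (0.271), Col20a1 for Insig2 (0.459), Paox for Stard4 (0.118), Aldh4a1 for Abca1 (0.0881), Ulk1 for Abcg5 (0.159) and Rab4a for Abcg8 (0.176). Acsl3 was the next after Zfp568 for Insig1 (0.272), and Zfp568 was also the second nearest to Stard4 (0.125). Lims2 (0.161) and Npc1 (0.184) followed Ulk1 for Abcg5. Insig2 and Insig1 lay farthest from their nearest genes, at 0.459 and 0.271. The root mean square of each around its own mean was 0.985 and 0.594. The likeness describes these libraries and carries no test.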

How the data were processed

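The authors extracted liver RNA with Trizol, sequenced paired-end Illumina reads, mapped them to mm10 with HISAT2, sorted alignments with SAMtools, counted reads per gene with HTSeq and tested with DESeq2. Versions, annotation and strand setting are not given in the sources used here. The deposited table holds unnormalized counts per gene symbol, 1 column per library, without pooling. Reads of overlapping genes may have been lost or assigned to either gene.

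From these counts, 8 libraries in 4 groups were fitted in 1 model with edgeR 4.0.16 (R 4.3.3), using TMM factors, filterByExpr and the quasi-likelihood test for 5 contrasts. P-values were adjusted by Benjamini-Hochberg over 13993 genes, with a threshold of 0.05. Library totals of 6171051 to 9157362 limit precision for low genes. The common biological coefficient of variation was 22.7%. CPM was scaled by TMM, log2 CPM used a prior count of 2, and FPKM divided CPM by GENCODE M21 exon length (GRCm38). The scripts were tested on simulated data. Ratios within libraries were compared by exact permutation. Promoters came from RefSeq (GRCm38.p6). Stard4 had no entry.

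The 8 genes and all lists were chosen with earlier results of these data known. The genes named were the 8, up to 3 called genes with the largest changes per other list and comparison, and up to 3 genes nearest in pattern to each, of which the first or the first few are given. 2 genes selected by this rule are not reported here. Alternatives were DESeq2 1.42.0, median-of-ratios size factors, library totals alone, no filter, a mean of at least 10 counts, only the libraries compared, a replicate block, and leaving out each library, in which the lone sample of a group was assumed to vary like the other groups. Marker lists of bile duct (5 genes), intestinal epithelium (2 of 5 in the table) and neutrophils (2 of 3) had no called gene in any comparison, and the only adipose marker in the table was too low to test.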

Additional observations from a re-analysis of the deposited data

Results flagged for a closer look

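The diet effect on Abca1 pointed opposite ways in the genotypes. Both WT-EtOH libraries were below both WT-Control libraries, with a log2 fold change of -0.40, and both Elf4-/- EtOH libraries were above both Elf4-/- Control libraries, with a log2 fold change of 0.32. Neither passed the test, with adjusted p-values of 0.179 and 0.380. The share of all genes that show such a pattern was not counted. The test of the difference itself gave 0.72 ± 0.28 (SE), with an unadjusted p of 0.0287 and an adjusted p of 0.434 over all genes. With scaling by library totals alone the WT value was 0.03, so that the opposite directions depend on the scaling.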

How the results depend on the processing

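Over 8 genes and 5 comparisons, 425 of 464 values under other settings kept their direction and their side of the threshold, 6 lost a call, 7 gained one and 26 changed sign, all of these without a call in either setting. Log2 ratios within libraries moved widely without single libraries: Insig1 over Insig2 ranged from -1.76 to 1.84 for genotype under EtOH and from -3.32 to 0.28 for diet in Elf4-/-. Scaling by library totals alone shifted the median of all genes by -0.23 for genotype under EtOH, 0.23 for genotype under the control diet, 0.43 for diet in WT, -0.034 for diet in Elf4-/- and -0.46 for the interaction. It turned Abcg5 to -0.085 for genotype under EtOH, Abca1 to 0.092, Abcg5 to 0.025 and Abcg8 to 0.12 for genotype under the control diet, Srebf2 to 0.081, Stard4 to 0.25 and Abca1 to 0.032 for diet in WT, and Stard4 to -0.037 and Abcg5 to -0.11 for the interaction. The interaction of Abcg8, close to 0, was 0.0079 with DESeq2 and 0.0074 with median-of-ratios size factors.

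Leaving out single libraries gave ranges across 0 for genotype under EtOH of -0.35 to 2.30 (Insig2), -0.14 to 0.40 (Abcg5) and -0.95 to 0.43 (Abcg8), for genotype under the control diet of -0.049 to 0.34 (Srebf2), -0.37 to 0.93 (Insig1), -0.28 to 0.026 (Abca1) and -0.23 to 0.037 (Abcg8), for diet in WT of -0.37 to 0.87 (Insig2), for diet in Elf4-/- of -0.37 to 0.99 (Insig1) and -0.17 to 0.56 (Stard4), and for the interaction of -0.86 to 0.53 (Abcg8).

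The number of the 8 genes called ranged from 0 to 2 without single libraries for genotype under EtOH, diet in WT and diet in Elf4-/-, and from 0 to 1 for the interaction. The genes gained for genotype under EtOH were Stard4 without the first Elf4-/- EtOH library, and Srebf2 and Insig2 without the second (adjusted p-values of 0.0307, 0.0300 and 0.00864). Insig2 was also the gene gained for the interaction without the second, at 2.72 and an adjusted p of 0.0264. For diet in Elf4-/- the count was 0 with only the libraries compared and 0 with the replicate block, where Abcg5 had an adjusted p of 0.0608. Deviations of libraries with the same replicate number correlated only between -0.13 and 0.11 over 9398 genes. Weak correlations of this kind do not show whether the numbers pair samples. The block changed no other call among the 8.

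Over all genes, DESeq2 called 180, 79, 811 and 111 genes for genotype under EtOH, genotype under the control diet, diet in Elf4-/- and the interaction, against 20, 2, 404 and 0 with edgeR. With only the libraries compared the counts were 0, 22 and 40 for the first 3 of these, with no filter they were 50 and 14 for the first 2 and 7 for the interaction, with library totals alone 5 genes were called for genotype under the control diet, and with the replicate block 10 for genotype under EtOH and 240 for diet in Elf4-/-. Without single libraries they ranged from 0 to 366 for genotype under EtOH, 0 to 1 for genotype under the control diet, 626 to 1753 for diet in WT, 9 to 1683 for diet in Elf4-/- and 0 to 139 for the interaction. The causes of these changes were not tested. With 2 libraries per group, a change that missed the threshold is not shown to be absent.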
